A study of Mus musculus with 19 samples.

Results

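Nonsense-mediated decay (NMD) is the pathway by which cells destroy mRNAs whose translation ends too early. The 9 genes described here encode 7 of its core factors, Upf1, Upf2, Upf3a, Upf3b, Smg1, Smg5 and Smg6, and 2 components of the exon junction complex, Eif4a3 and Rbm8a. They were taken by name from 54749 annotated genes whose estimated counts were summed, and all 9 passed the filter on low counts that left 18687 genes for testing. RNA was measured in neural progenitor cells, the dividing cells that give rise to cortical neurons and glia, cultured with 20 ng/ml each of FGF2 and EGF. The cells came from embryonic cortices of mice that were wild type (WT) for Mettl14 or carried its conditional knockout (KO). The labels give neither the Cre line nor the age of the embryos, and nothing says which replicates came from separate cultures or animals, so p-values measure the spread between these libraries, which may be technical.

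Ladder-seq separates mRNA by length before sequencing, here into 7 bands, each with its own barcode. There were 4 WT and 4 KO ladder libraries of paired reads of 75 bases, and 3 WT standard libraries, without that separation, of single reads of 50 bases. Native RNA and direct cDNA were read on a nanopore device in 2 samples per genotype, which share 1 assembly per genotype and chemistry. Total estimated counts were 103752444 to 126921887 in ladder libraries and 12084507 to 13987929 in standard libraries. Mettl14, a subunit of the enzyme that writes N6-methyladenosine (m6A) into mRNA, checked the labels. Its level was 23.2 to 32.6 CPM (counts per annotated library total, with TMM scaling between libraries) in WT and 7.02 to 9.25 CPM in KO ladder libraries, lower by 1.87 on the log2 scale (adjusted p = 5.37e-07, edgeR). The 10 progenitor markers summed to 7938 to 8324 CPM in WT and 5443 to 6622 CPM in KO, and most of that sum was Fabp7 (mean 4527 CPM in WT) and Vim (2943 CPM), both lower in KO. Nes, from 194.2 to 430.3 CPM, and Notch1, from 236.8 to 374.1 CPM, were higher in KO, and Pax6, Hes1, Hes5 and Msi1 were at means of 18.4 to 36.7 CPM in either genotype. Marker lists of other cell types also differed between the genotypes. Of 8 oligodendrocyte-lineage genes 2 were higher and 4 lower in KO, with Pdgfra falling from 99.95 to 5.23 CPM, and of 6 astrocyte genes 5 were higher and 1 lower. All 6 neuronal genes called of 7 were lower. Of all genes tested, 26.4% were called higher and 27.2% lower in KO (adjusted p under 0.05, edgeR). Whether a marker list differs from all genes was not tested. The 6 meningeal fibroblast genes summed to 0.624 to 0.867 CPM in WT and 6.36 to 7.59 CPM in KO, and microglial and endothelial lists stayed under 5 CPM in every library. Fewer cells of a type and less RNA per cell cannot be told apart in bulk libraries, and the part of these differences in the results below was not tested.

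As background, Upf1 is an RNA helicase that Smg1, a kinase, phosphorylates once a ribosome has stopped at a premature stop codon. Upf2 and the paralogs Upf3a and Upf3b link Upf1 to the exon junction complex, a mark that splicing leaves on mRNA upstream of each joined exon boundary. Smg6 cuts the phosphorylated Upf1-bound mRNA as an endonuclease, while Smg5 helps to bring in deadenylation and decapping. Eif4a3 is the RNA helicase that clamps the exon junction complex onto mRNA, and Rbm8a with its partner Magoh locks that clamp. In neural progenitors the dose of exon junction proteins is known to matter for cortical growth.

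The genes lie on 6 chromosomes of the mouse genome build GRCm38, with GENCODE M21 names. Upf1 (ENSMUSG00000058301) is at chr8:70331525-70353278 on the minus strand and Rbm8a (ENSMUSG00000038374) is at chr3:96629933-96633791 on the plus strand. Smg6 (ENSMUSG00000038290) spans chr11:74925823-75164448 on the plus strand. For each of these 3 genes the results below include a pair of transcripts that differ in a short coding segment. The segments are shown here with 15 bases on each side, 5′ to 3′ in the sense of the mRNA, read from the GENCODE M21 transcripts. Capitals mark the bases present in the named transcript and absent from the other.
Upf1-201: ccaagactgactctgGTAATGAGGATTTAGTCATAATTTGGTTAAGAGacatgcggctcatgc
Rbm8a-202: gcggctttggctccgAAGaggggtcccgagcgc
Smg6-201: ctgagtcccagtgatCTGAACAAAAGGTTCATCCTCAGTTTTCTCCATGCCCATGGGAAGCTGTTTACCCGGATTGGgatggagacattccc

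The Upf1 segment (chr8:70339982-70340014, minus strand) has 33 bases, or 11 codons, at the 3′ end of an internal exon, and Upf1-202 lacks it because it uses an earlier 5′ splice site. It lies in the helicase and is the segment that sets the longer regulatory loop isoform of Upf1 apart from the shorter, more common isoform. Upf1-201 also starts 67 bases further upstream. The Rbm8a segment (chr3:96630477-96630479, plus strand) is 3 bases, 1 codon, at the 5′ end of an internal exon, and Rbm8a-201 lacks it. The Smg6 segment (chr11:74981852-74981913, plus strand) is a whole internal exon of 62 bases. This length is not a multiple of 3, and Smg6-202, which skips the exon, is annotated as a target of NMD.

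In the KO, Upf1 and Rbm8a were higher and no other of the 9 genes passed the test. Upf1 was 1.40-fold and Rbm8a 1.29-fold the WT level. These were 2 of 9 genes called, against 53.6% of all genes tested in the same comparison (26.4% higher and 27.2% lower in KO). With DESeq2, 4 of 9 were called, against 38.5% of 26334 genes. That is a larger set than the 18687 genes behind the 53.6%, so the percentages have different backgrounds. Whether the 9 genes differ from either background was not tested. For 8 of the 9 the absolute change was below the median of all genes. The change of Upf1, the largest of the 9, was 0.48 on the log2 scale, beside a median absolute change of 0.46 over all genes, and 48.1% of genes changed by more. The median signed change was 0.10 over the 9 genes and -0.03 over all genes.

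Upf1, the helicase on which the pathway turns, was at 54.8, 59.6, 50.8 and 72.2 CPM in the WT ladder libraries and at 78.2, 83.2, 96.95 and 73.1 CPM in the KO ladder libraries. Every KO library was above every WT library, with KO replicate 4 only just above WT replicate 4. This order rests on the TMM scaling: on annotated totals alone, a scaling added after the data were seen, KO replicate 4 was at 68.7 CPM and WT replicate 4 at 74.6 CPM. The mean rose from 59.4 ± 9.31 to 82.9 ± 10.3 CPM (SD, n = 4 each), a log2 fold change of 0.48 (SE 0.13, adjusted p = 0.0094, edgeR quasi-likelihood with p adjusted by Benjamini-Hochberg over all genes). The call held when each ladder library was left out in turn, with adjusted p from 0.0025 to 0.032, and without TMM scaling (adjusted p = 0.0137).

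**Figure D1:**
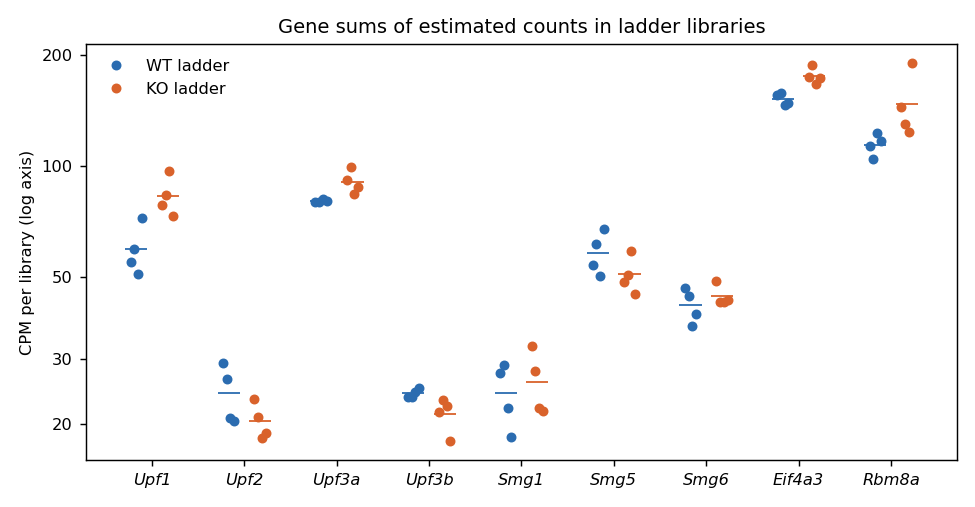
Level of each gene in the ladder libraries, in CPM with TMM scaling on a log axis. Points are libraries, 4 WT in blue and 4 KO in orange, and lines are group means. KO libraries lie above all WT libraries for Upf1, Upf3a, Eif4a3 and Rbm8a and below them for Upf3b, and overlap for the other genes.

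Of the adaptor genes, Upf2 was at 29.3, 26.5, 20.8 and 20.3 CPM in WT and at 23.4, 20.9, 18.3 and 18.9 CPM in KO, and the groups overlapped. Its log2 fold change was -0.25 (95% interval -0.52 to 0.02, adjusted p = 0.15), and it passed the test, at an adjusted p of 0.048, without WT replicate 4. Upf3a, at 79.6 to 81.5 CPM in WT and 83.7 to 99.5 CPM in KO, did not overlap between the groups. Its log2 fold change of 0.17 (interval -0.01 to 0.35) had an adjusted p of 0.14 in edgeR and of 0.040 in DESeq2. Its X-linked paralog Upf3b, at 23.6 to 24.98 CPM in WT and 17.95 to 23.2 CPM in KO, differed the other way without overlap. The log2 fold change of Upf3b was -0.19 (interval -0.38 to 0.01, adjusted p = 0.14), and -0.25 (adjusted p = 0.048) when only transcripts annotated as protein-coding were summed. Its only other model, Upf3b-203, had no counts in ladder libraries. The counts of Upf3b were thus the same in both fits, and its fold change moved with the scaling between libraries. The sex-linked genes also differed between these libraries, with Xist falling from 173 to 55.9 CPM and Ddx3y, on the Y chromosome, at 0.013 and 4.39 CPM. The part of the embryos' sex in the level of Upf3b was not tested.

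The kinase Smg1 was at 27.5, 28.9, 22.1 and 18.4 CPM in WT and at 32.5, 27.8, 22.0 and 21.7 CPM in KO, with nearly complete overlap. Its log2 fold change was 0.10 (interval -0.23 to 0.43, adjusted p = 0.63) and turned to -0.04 without WT replicate 4 and to -0.02 without KO replicate 1. Smg5, an adaptor for mRNA decay, was at 50.2 to 67.2 CPM in WT and 45.1 to 58.8 CPM in KO, also overlapping (log2 fold change -0.20, interval -0.44 to 0.05, adjusted p = 0.20). The endonuclease gene Smg6 was at 36.8 to 46.6 CPM in WT and 42.6 to 48.7 CPM in KO. The log2 fold change of Smg6 was 0.08 (interval -0.13 to 0.29, adjusted p = 0.54) and turned to -0.09 with counts scaled from TPM.

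Both exon junction genes were higher in every KO library than in any WT library. Rbm8a was at 113.3, 104.3, 122.8 and 116.5 CPM in WT and at 144.3, 129.9, 123.9 and 190.2 CPM in KO. KO replicate 4 stood well above the other KO libraries, and KO replicate 3 was close to the highest WT library. A log2 fold change of 0.36 (SE 0.14) passed the test narrowly (adjusted p = 0.044). The call was lost without WT replicate 1 (adjusted p = 0.0884), WT replicate 2 (0.0885), WT replicate 4 (0.12), KO replicate 1 (0.069) or KO replicate 4 (0.094), and the log2 fold change without KO replicate 4 was 0.22. It was also lost with counts scaled from TPM (adjusted p = 0.0504) and with protein-coding transcripts only (0.082). In the latter fit the scaling between libraries differed as well. Eif4a3 was at 155.4, 157.5, 146.5 and 147.8 CPM in WT and at 174.3, 187.7, 166.3 and 173.3 CPM in KO. Its log2 fold change of 0.21 (interval 0.03 to 0.39) had an adjusted p of 0.079 in edgeR and of 0.0045 in DESeq2, so its call depended on the test. In all, 4 of 9 genes had every KO library above every WT library, against 25.5% of all genes, and 1 of 9 every KO library below, against 23.5%. On annotated totals without TMM scaling these counts were 2, Eif4a3 and Rbm8a, against 23.7%, and 0 against 23.2%, since Upf1, Upf3a and Upf3b then overlapped.

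**Figure D2:**
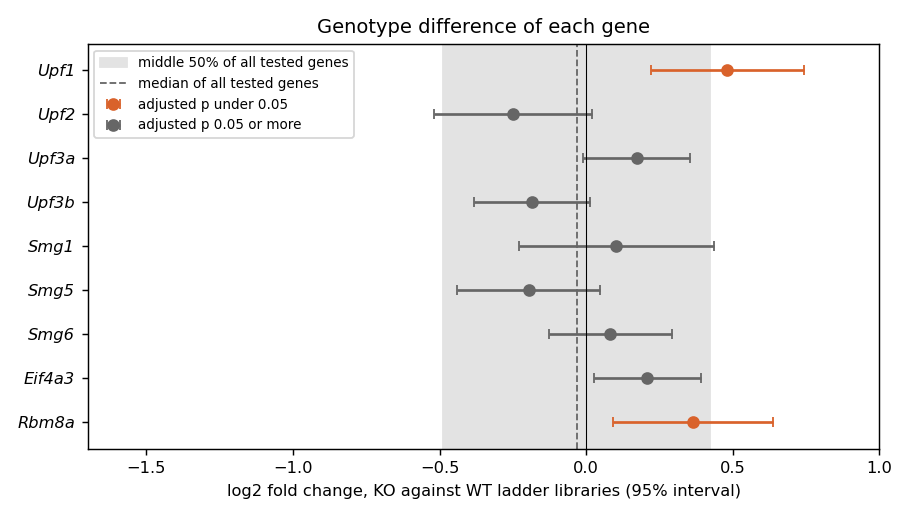
Log2 fold change of each gene between KO and WT ladder libraries with its 95% interval, on the x axis. Orange marks an adjusted p under 0.05, the grey band the middle 50% of all 18687 genes tested and the dashed line their median of -0.03. Of the 9 estimates, 8 lie within the band and that of Upf1, at 0.48, lies just outside it.

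Genes that work beside these 9 were also counted, and their counts stand against the same 26.4% higher and 27.2% lower among all genes. Of 8 further NMD factors, 2 rose and 1 fell in KO. Smg8, whose protein sits with Smg9 on the Smg1 kinase, was at 19.6 ± 2.20 CPM in WT libraries and 29.5 ± 3.51 CPM in KO libraries (SD, n = 4 each). The ATPases Ruvbl1 and Ruvbl2, which act together in the assembly of large kinases such as Smg1, went opposite ways, Ruvbl1 by 0.59 and Ruvbl2 by -0.78 on the log2 scale (adjusted p = 0.00039 and 0.0012, edgeR). Of 12 further exon junction and cap-binding genes, 5 rose and 2 fell. Magohb, a paralog of the Rbm8a partner Magoh, rose by 0.44 on the log2 scale (SE 0.14, adjusted p = 0.020, edgeR). Magoh itself, with a log2 fold change of 0.34, missed the threshold (adjusted p = 0.059). Pym1, which takes the exon junction complex apart, rose by 0.60, and the peripheral component Acin1 by 0.68. Pnn and the nuclear cap-binding gene Ncbp1 fell by 0.39 and 0.35 on that scale. Casc3, a further core component, had a log2 fold change of 0.07 (adjusted p = 0.68).

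Of 6 translation termination and cap-binding genes, 2 rose and 1 fell, and these were the release factor gene Gspt2 (0.60), the scaffold Eif4g1 (0.45) and the poly(A)-binding protein gene Pabpc1 (-0.33 on the log2 scale). Of 18 decapping and decay genes only Lsm6 passed the test, rising from 77.7 to 105.9 CPM. Of 17 deadenylase genes 4 rose and 3 fell, among them Btg1 (0.85) and the catalytic subunit gene Cnot7 (-0.90). Of 11 genes whose normal transcripts are known NMD targets, 1 rose and 4 fell. Gadd45a rose from 17.1 to 28.8 CPM, while its paralog Gadd45b fell from 13.3 to 7.66 CPM and the snoRNA host Snhg12 from 40.4 to 26.4 CPM. None of these lists moved in 1 direction only, apart from the decapping list with its 1 call. Whether any list differs from all genes was not tested. Their medians lay between -0.25 and 0.24 on the log2 scale.

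Single transcripts of the 9 genes were compared next. Of 29 transcripts tested, 5 were higher and 3 lower in KO, against 35.2% of all transcripts tested (17.3% higher and 17.9% lower). The count was 3 without WT replicate 1, 4 without WT replicate 2, KO replicate 1 or KO replicate 4, and 5 without WT replicate 4. The transcripts called in every such fit were Upf1-202, Upf3a-202 and Smg6-206. The short-loop form Upf1-202 rose from 41.2 ± 5.12 to 58.1 ± 6.998 CPM (SD, n = 4 each), while Upf1-201 had a log2 fold change of 0.72 that missed the threshold (adjusted p = 0.11, edgeR). Upf3a-202 is a model of 2 exons annotated as a retained intron. Its log2 fold change was 1.13 (SE 0.25, adjusted p = 0.0089), and it took 1.86% to 2.94% of the gene's counts in WT and 2.97% to 6.12% in KO. A longer retained-intron model, Upf3a-203, went down from 1.84% ± 0.229 to 1.06% ± 0.146 of the gene's counts (SD, n = 4 each), but of the fits without a library it was called only in that without WT replicate 3. The coding transcript Upf3a-201 took 94.5% of the counts in KO beside 95.8% in WT.

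Smg6-206, a non-coding model of 637 bases in 2 exons near the 3′ end of the gene (chr11:75159633-75159906 and chr11:75162820-75163182), was at 0.713, 0.641, 0.641 and 0.635 CPM in WT. In KO it was at 0.289, 0.197, 0.116 and 0.359 CPM, so that no library overlapped. The log2 fold change was -1.45 (SE 0.32, adjusted p = 0.0083, edgeR). Its share of the gene's counts was 1.62% ± 0.0804 in WT and 0.528% ± 0.237 in KO (SD, n = 4 each). Because the model is short, its share of the gene's TPM was larger, 16.2% in WT and 5.89% in KO. In the test of unequal change among the transcripts of a gene, Smg6 was the only gene called of 8 that could be tested (Simes adjusted p = 0.016), against 19.6% of 10532 genes. That call was lost without WT replicate 3 (adjusted p = 0.053), KO replicate 2 (0.0881) or KO replicate 3 (0.13).

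Shares of 5% or more were compared in two-sided exact permutation tests, in which 4 against 4 libraries cannot give a p below 0.0286. Over 13 shares a single one at that limit has an adjusted p of 0.37, so that these tests could not call it. This was the case for the coding transcript Smg6-201, which took 98.06%, 98.04%, 97.86% and 97.71% of Smg6 counts in WT and 98.99%, 99.27%, 99.61% and 98.78% in KO, without overlap. Of the gene's TPM, Smg6-201 took a mean of 81.7% in WT and 92.95% in KO. Upf1-201, the long-loop form, took 18.9%, 19.96%, 34.9% and 38.1% of Upf1 counts in the WT ladder libraries. It took 33.0%, 34.8%, 32.1% and 26.9% in KO and 31.9%, 62.7% and 60.5% in the standard libraries. The spread between WT libraries was thus wider than the difference of 3.71 percentage points between the genotypes. The Rbm8a forms with and without the extra codon held nearly fixed shares. Rbm8a-202 took 31.6% to 32.0% in WT and 32.0% to 32.7% in KO, beside 38.5% to 40.1% and 35.4% to 39.9% for Rbm8a-201. Smg1-204, an NMD-annotated form of the kinase transcript, was uneven across libraries of either genotype. Its share was 10.5%, 6.31%, 0% and 0% in WT replicates 1 to 4 and 12.7%, 9.998%, 1.199% and 1.475% in KO replicates 1 to 4. Replicates 1 and 2 were high and replicates 3 and 4 low in both genotypes.

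**Figure D3:**
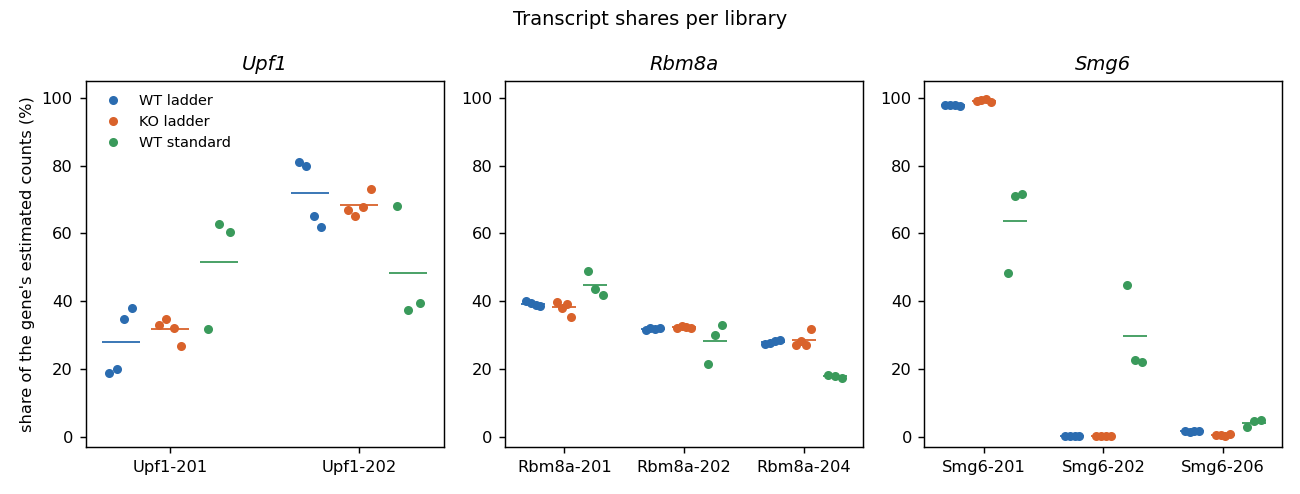
Share of the gene's estimated counts, in percent, taken by named transcripts of Upf1, Rbm8a and Smg6. Points are libraries (4 WT ladder, 4 KO ladder, 3 WT standard) and lines are means. Upf1-201 ranges from 18.9% to 38.1% among WT ladder libraries alone, and Smg6-202 is under 1% in every ladder library and above 20% in every standard library.

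Annotation classes add what these genes' own transcripts look like as possible NMD targets. Models annotated as NMD targets held 0.27% ± 0.261 of the counts of the 9 genes in WT and 0.318% ± 0.293 in KO (SD, n = 4 each), beside 3.15% and 2.78% over all genes. Retained-intron models held 6.48% and 7.40% of the counts of the 9 genes, beside 2.97% and 2.71% over all genes. Most of the retained-intron counts belonged to Rbm8a-204, which alone took 27.9% ± 0.621 of Rbm8a counts in WT and 28.6% ± 2.20 in KO (SD, n = 4 each).

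Rbm8a-204 is a model of 560 bases in 2 exons (chr3:96631221-96631568 and chr3:96631689-96631900). It took 69.4% of the gene's TPM in WT and 70.3% in KO ladder libraries. It ends 166 bases after the stop codon of the coding transcripts, whereas the annotated coding models Rbm8a-201 and Rbm8a-202 run on for 2057 bases. In the long reads, transcripts with the intron chain of Rbm8a-202 ended 166 bases (WT cDNA), 185 bases (KO cDNA) and 165 bases (WT native RNA) after the stop codon. In KO native RNA the only assembled transcript ended 1178 bases after it. No assembled Rbm8a transcript reached the annotated end of Rbm8a-201 and Rbm8a-202. In 3 of the 4 assemblies most of the TPM ended close to the annotated end of Rbm8a-204. The ends of the other annotated models were not compared. The chain of Rbm8a-201, without the extra codon, was in none of the 4 assemblies, while short reads gave it the larger count share of the coding forms in each ladder library.

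Levels per transcript length, in TPM as deposited, ordered the genes. In WT ladder libraries, Rbm8a (78.1 ± 6.74 TPM) and Eif4a3 (77.6 ± 9.57 TPM) were highest and did not differ beyond their spread (SD, n = 4). Upf3a followed at 29.3 ± 3.02 TPM. The rank of Rbm8a leans on the short retained-intron model Rbm8a-204, which took 69.4% of the gene's TPM in these libraries. Its coding models Rbm8a-201 and Rbm8a-202 took 15.9% and 12.9%. Smg5 (11.1 ± 2.44 TPM), Upf1 (9.31 ± 2.28 TPM) and Upf3b (7.89 ± 0.916 TPM) overlapped each other. Smg6, at 6.02 ± 0.974 TPM, overlapped Upf3b, and below it came Upf2 at 3.34 ± 0.674 TPM and Smg1 at 1.31 ± 0.304 TPM. In KO the order was the same but for Upf1, at 13.8 ± 3.34 TPM, above Smg5, at 9.80 ± 2.28 TPM, and these overlapped. In the standard libraries, Eif4a3 led with 188 ± 14.5 TPM, ahead of Rbm8a with 101 ± 9.50 TPM (SD, n = 3). Upf2 was lowest there, at 10.99 ± 1.47 TPM, with Smg1 above it at 15.7 ± 2.74 TPM and no overlap between these.

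The comparison of WT ladder with WT standard libraries asks how far these levels depend on the library type. Of the 9 genes, 3 were higher and 2 lower in ladder libraries, against 61.1% of all genes tested (30.8% higher and 30.3% lower). Smg1, whose main transcript of 15557 bases is the longest of the 9, was at 33.8, 36.3, 28.5 and 22.5 CPM over shared targets in ladder libraries and at 127.3, 110.1 and 100.9 CPM in standard libraries. Every ladder library was far below every standard library, with a mean 3.73-fold lower (log2 fold change -1.90, SE 0.18, adjusted p = 5.97e-05, edgeR). Upf1 was also lower, by 0.69 on the log2 scale (adjusted p = 0.0031). Upf3a was at 97.98 to 105.1 CPM in ladder and 33.1 to 42.4 CPM in standard libraries, 2.56-fold higher in the former (log2 fold change 1.36, SE 0.13, adjusted p = 5.29e-05). Rbm8a was 2.03-fold and Eif4a3 1.35-fold higher in ladder libraries (adjusted p = 0.00022 and 0.0089). For Upf2, Upf3b, Smg5 and Smg6 the groups overlapped and the test was not passed (adjusted p from 0.14 to 0.68). The 5 genes called were also those without overlap, 3 higher against 32.2% of all genes and 2 lower against 29.8%. With counts scaled from TPM, Smg5 (-0.38, adjusted p = 0.027) and Smg6 (-1.06, adjusted p = 0.0076) were lower in ladder libraries as well. In TPM as deposited, scaled over all targets of a library, the mean of each of the 9 genes was lower in ladder libraries. The direction for the 3 genes higher in CPM thus depended on the unit. Their ladder and standard means were 77.6 and 188 TPM for Eif4a3, 78.1 and 101 TPM for Rbm8a, and 29.3 and 34.7 TPM, with overlap, for Upf3a.

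Over all genes the difference between the library types went with transcript length, as a description. The median log2 fold change was 1.37 for genes under 1 kb, 0.49 from 1 to 2 kb, -0.41 from 3 to 4 kb and -0.88 at 6 kb or more. Each gene's length was the mean over its transcripts, weighted by TPM in the standard libraries. Rbm8a (1345 bases) and Eif4a3 (1429 bases) were above 0 and Smg1 (11986 bases) below. Weighted by counts instead, a choice added after the data were seen, Rbm8a had 2227 bases and moved to the class from 2 to 3 kb, whose median was then 0.11, while Eif4a3 (1487 bases) and Smg1 (15258 bases) stayed in theirs. Upf3a, at 2049 bases, was far above the median of -0.03 of its class with TPM weights, and Upf3b, of nearly the same length at 2070 bases, had a log2 fold change of -0.09. The library types differ in size selection, read length, pairing, depth and sequencer together, and these cannot be told apart.

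**Figure D4:**
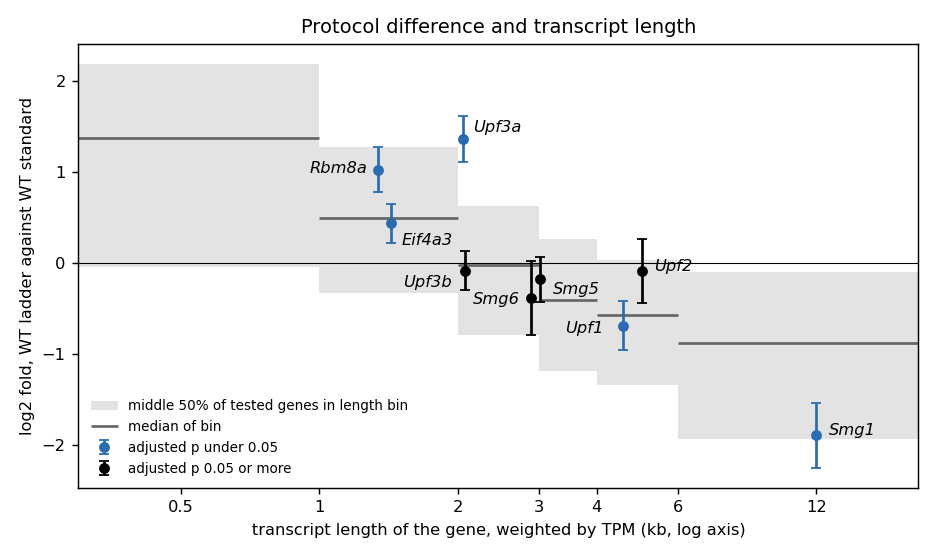
Log2 fold change of WT ladder against WT standard libraries (y axis, with 95% interval) against the gene's transcript length in kb, weighted by TPM in the standard libraries (x axis, log scale). Grey bands and lines give the middle 50% and the median of all tested genes per length class. Smg1, the longest, is at -1.90, and Upf3a, at 1.36, lies above the band of its class.

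Transcript shares of Smg6 also stood apart between the library types. Smg6-202, which skips the exon of 62 bases shown above and starts 1708 bases further downstream in the mRNA, took 44.7%, 22.8% and 22.0% of Smg6 counts in standard libraries. In WT ladder libraries it took 0.323%, 0.179%, 0.261% and 0.275%, and in KO ladder libraries 0.220%, 0.271%, 0.0823% and 0.250%. The coding transcript Smg6-201 took 48.2% to 71.7% in standard and 97.7% to 98.1% in WT ladder libraries. In the same way the retained-intron model Smg5-203 took 7.72% to 14.0% of Smg5 counts in standard libraries and at most 0.976% in a ladder library. These differences between the protocols were not tested. In both cDNA long-read assemblies, Smg6-201 was assembled with its whole intron chain, and Smg6-202 in none of the 4 assemblies. The chain of Smg6-206, 1 intron, was matched in WT native RNA alone (2.42 TPM). That transcript had 2459 bases, beside 637 bases of the annotated model.

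Long reads give 1 pooled TPM value per genotype and chemistry, with no error. Upf1 was at 4.66 TPM in WT and 19.2 TPM in KO native RNA, and at 1.24 TPM in WT and 2.33 TPM in KO cDNA. It was higher in KO in both, as in the ladder libraries, but the native RNA transcripts held only the last 10 of the gene's 24 exons in WT and the last 7 in KO. The leading native transcript of the KO (17.4 TPM) ran to 30 bases beyond the annotated 3′ end and kept the last intron of 140 bases. The native transcript of the WT stopped 930 bases before that end, and all cDNA transcripts of either genotype stopped 862 to 884 bases before it. In cDNA the whole chain of the short-loop form Upf1-202 was at 1.24 TPM in WT and 1.79 TPM in KO, and that of Upf1-201 was at 0.225 TPM in KO and not assembled in WT. Eif4a3 was higher in KO as well, at 156.9 and 223.7 TPM in native RNA and 15.1 and 22.8 TPM in cDNA. Rbm8a went opposite ways, with 142.4 TPM in WT against 84.4 TPM in KO native RNA and 16.4 TPM against 20.1 TPM in cDNA.

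Upf3b and Smg5 were also higher in KO in both chemistries, Upf3b at 12.1 and 12.8 TPM in native RNA and 3.04 and 5.47 TPM in cDNA, and Smg5 at 12.2 and 14.5 TPM and 0.897 and 0.938 TPM. For these the ladder libraries had gone the other way, without passing the test. Upf2 was lower in KO in both, at 11.5 and 10.9 TPM in native RNA and 1.66 and 0.912 TPM in cDNA. Upf3a was at 29.2 and 18.4 TPM in native RNA and 4.82 and 5.05 TPM in cDNA, and Smg6 at 11.7 and 9.06 TPM and 1.03 and 1.69 TPM. Smg1 had no assembled transcript with an annotated intron in KO native RNA, where a transcript overlapping its exons stood at 15.7 TPM, beside 11.5 TPM in WT. In cDNA the values for Smg1 were 1.6 TPM in WT and 1.49 TPM in KO, in fragments of at most 51 of its 63 exons. Counting whole annotated intron chains only, Eif4a3 was higher in KO in both chemistries. Upf1 and Smg5 had no whole chain in native RNA of either genotype, and Upf3b none in KO native RNA, so that these could not be compared on that count.

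**Figure D5:**
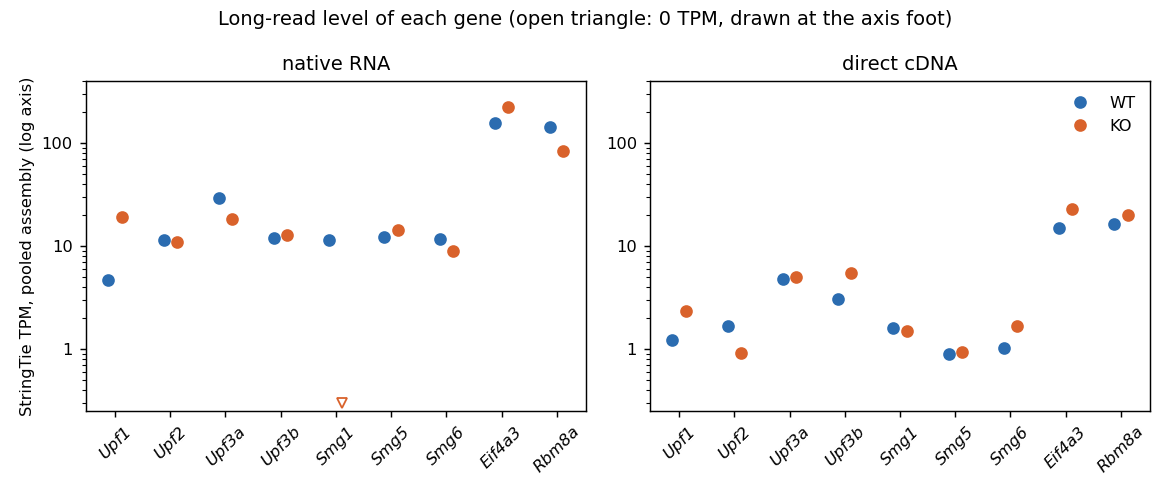
StringTie TPM of each gene in the pooled long-read assemblies on a log axis, native RNA on the left and direct cDNA on the right, WT in blue and KO in orange. There is 1 value per genotype and chemistry and no error. Eif4a3 and Rbm8a are highest in both, and the open triangle marks Smg1 at 0 TPM in KO native RNA.

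Sequence features that the choice of genes did not use varied widely among them. The word GGACT, a common form of the m6A consensus, was counted in the sense strand of each gene's leading coding transcript. It occurred 14 times in Smg1, 7 times in Smg6, 6 times in Smg5, 4 times in Upf2 and 3 times in Upf1, and not at all in Upf3a. Per kb this was 0.664 in Upf1, 0.767 in Rbm8a, 0.773 in Upf2, 0.853 in Upf3b and 0.9 in Smg1. These and Upf3a were below the median of 1.06 over 14789 genes. Smg5 (1.35), Eif4a3 (1.33) and Smg6 (1.2) were above it. Of the 14789 genes 90.3% held the word at least once, so that Upf3a was among the minority without it. The longest internal exon had 1756 bases in Smg6, longer than in 98.0% of genes, and 137 bases in Rbm8a, longer than in 21.3%. Upf2 (780 bases, longer than in 91.3%), Smg5 (603 bases, 87.8%) and Smg1 (470 bases, 83.9%) also had long ones. In Upf1, Upf3a, Upf3b and Eif4a3 it had 142 to 301 bases. A match of these letters is a description and does not show that a site is methylated.

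Over the 8 ladder libraries, the genes whose log2 CPM followed that of Upf1 most closely among 8051 well-expressed genes were Tle3, a corepressor gene (Pearson r = 0.9955), Gmeb1 (0.9945) and Ambra1 (0.992). This is a description over libraries that share the genotype difference, with no test.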

How the data were processed

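The authors' deposited tables give the estimated counts and TPM that kallisto assigned to each transcript, per the file headers; the kallisto version and the way bands were combined are not given in the sources used here. TPM was scaled by the authors to a fixed sum per deposited library. Long-read assemblies were made with StringTie 2.0 in long-read mode, per the file headers, whose deposited transcript attributes hold TPM. Estimated counts were summed over GENCODE M21 genes, rounded, filtered (filterByExpr), scaled by TMM and tested by quasi-likelihood in edgeR 4.0.16 (R 4.3.3), with Benjamini-Hochberg adjustment over all features and a threshold of 0.05. Gene CPM use annotated library totals times TMM factors (0.94 to 1.03), and these totals were 86.6% to 88.1% of ladder and 99.4% of standard totals. Transcripts were fitted apart with TMM factors of their own, so their CPM and fold changes need not match those of the gene. Eif4a3-201, with 99.6% of Eif4a3 counts in WT, had a log2 fold change of 0.28 (adjusted p = 0.029, edgeR), beside 0.21 for the gene. Ladder and standard libraries were compared over 105848 shared annotated targets. Usage was tested with diffSpliceDGE, and shares with exact permutation tests. DESeq2 1.42.0 was an alternative. A gene's long-read TPM sums transcripts holding an annotated intron on its strand. The tests were checked on simulated data. All 9 genes are named by rule, and of each list up to 2 rises and 2 falls, with Magoh, Magohb and Casc3; some of the genes so chosen are left unnamed here but stay in the list counts. The genes, lists and tests were chosen with earlier results of these data known. Reads from Rbm8a2, a near-identical copy with 4 to 27 counts per ladder library, could be split with Rbm8a.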

Additional observations from a re-analysis of the deposited data

Results flagged for a closer look

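Smg6 in KO ladder replicate 1 was at 48.7 CPM, apart from the other 3 KO libraries at 42.6 to 43.2 CPM. The gap took 0.908 of the group's range, above Dixon's critical value for 4 samples. Over 46 groups tested this was the only such sample, and chance alone gives about 1 in 20.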

How the results depend on the processing

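For KO against WT, the count of 2 genes called was 4 with DESeq2, which added Upf3a and Eif4a3, 1 with counts scaled from TPM, and 1 to 2 without each library. With protein-coding transcripts only it was 2 again, but Upf1 and Upf3b. The counts of Upf3b were unchanged in that fit, and the scaling between libraries differed. Reversed values, none past the threshold, were Smg6 at -0.091 with counts scaled from TPM, and Smg1 at -0.038 without WT replicate 4 and -0.017 without KO replicate 1 (range -0.038 to 0.197). The 8 transcripts called became 3 without a filter on low counts and 3 to 9 without each library. Those without each library also reversed Smg6-202 (-0.26 to 0.17) and Upf3b-202 (-0.176 to 0.271), neither called. The usage call became 0 among transcripts of 5% or more, where Smg6 could not be tested because 1 transcript alone reaches 5%; 1098 genes of 7935 were called there beside 2065 of 10532. It was 0 to 1 without each library. For ladder against standard, 5 genes were called without any library, 7 with counts scaled from TPM, and Upf2 reversed to 0.0375 there and to 0.0686 without standard replicate 1 (-0.212 to 0.0686 without each library). Genes higher in KO in both long-read chemistries went from 4 to 1 with whole intron chains, which Upf1 and Smg5 lack in native RNA.

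Same-numbered WT and KO libraries had correlations of their deviations from -0.02 to 0.05, and so showed no pairing by replicate number. Differently numbered libraries ran from -0.19 (WT replicate 4 with KO replicate 1) to 0.28 (WT replicate 2 with KO replicate 1). A grouping of libraries shared across the genotypes was not tested. With the replicate number as a block, 2 genes, 3 transcripts (Smg5-208, Upf3a-202 and Smg6-206, while Upf1-202 had an adjusted p of 0.0685) and 1 usage gene were called for KO against WT, and 4 genes for ladder against standard, where Eif4a3 had an adjusted p of 0.052. In the remaining alternatives every count of these genes stayed within 1.5 times its value. The cause of these changes was not tested. Low counts of the short models, under 1 CPM for Smg6-206, limit the transcript results.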
